A study of Mus musculus with 6 samples.

Results

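Genes that carry glucose from uptake to lactate export were followed in single immune cells of mice with ovarian tumors. They were chosen by symbol, 32 genes in all, for the transporters, enzymes and main regulators of that route. Earlier results of these data were known when the choice was made. The symbols matched 33 of the 32285 rows of the feature list because Aldoa has 2 gene identifiers. Single-cell RNA sequencing covered 6 libraries, each from 1 mouse, so no comparison between treatments has a replicate, no test was made and no p-value is given. The study describes the cells as those of orthotopic tumors formed by KPCA, a mouse ovarian cancer line proficient in homologous recombination, in female C57BL/6 mice. Lymph node is the tissue named in the sample labels, however, and the design text of the series speaks of young and aged animals. The study's methods put the mice at several weeks of age at tumor cell injection and name no aged group.

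The 6 groups shared the tumor line and the host strain. Control mice received solvent and a control rat IgG. Mice of the 2DG group received 2-deoxy-D-glucose, a glucose and mannose analog that the study used to lower branched N-glycans, at 500 mg/kg by intraperitoneal injection every 2 days from day 9. Mice of the 2FF group received a fluorinated fucose analog by gavage, which the labels call 2F-Peracetyl-Fucose and the study 2-fluoro-L-fucose, and their tumor cells had been kept in 2FF for 3 days before injection. The anti-PD-L1 group received an antibody that binds PD-L1, a checkpoint ligand, at 5 mg/kg 2 times a week for 3 weeks, and the remaining groups combined the antibody with 2DG or with 2FF. All mice were sacrificed on day 30. Below, "2DG libraries" means the 2DG and the 2DG plus anti-PD-L1 library, and the other 4 are the comparison group, of which only the control carries no active agent.

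Glycolysis splits glucose into pyruvate in the cytosol and yields ATP without oxygen. Hexokinase traps glucose as glucose 6-phosphate, phosphofructokinase commits it to breakdown, and lactate dehydrogenase with a monocarboxylate transporter turns pyruvate into lactate and moves it out of the cell. Neutrophils, inflammatory monocytes and activated T cells are known to rely on this route, and the oxygen-sensitive factor HIF-1 is known to drive many of its genes. 2-deoxy-D-glucose is itself taken up by glucose transporters and phosphorylated by hexokinase, and its phosphate is not processed further along the route.

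The libraries held 61859753 to 73885214 unique molecular identifiers (UMIs, each standing for 1 captured RNA molecule), and 51633 cells with at least 250 genes and at most 5% mitochondrial UMIs were kept. Cells were gated cell by cell on fixed marker genes into classes called here by the cell type they resemble, and 19.2% to 26.8% of the cells of a library stayed ungated. Of the 10 classes, 8 had at least 30 cells in every library and were compared. NK-like cells numbered only 22 in the control library, and epithelial-like cells, gated on keratins and other tumor markers, only 54 over all libraries, or 0.105% of the kept cells. B-like cells, plentiful in a lymph node, made up 2.70% of the kept cells. The control library stood apart in its makeup, with 3354 neutrophil-like cells against 248 to 493 elsewhere and 119 CD8 T-like cells against 1161 to 2073. Pairs of libraries shared at most 34 cell barcodes.

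For each library, the UMIs of all cells in 1 class were added up per gene and scaled to 1000000 UMIs of that class, giving CPM. A difference is the mean log2(CPM + 5) of both 2DG libraries minus that of the other 4, and adding 5 CPM shrinks the differences of weakly detected genes. A gene was called lower where both 2DG libraries lay below all 4 others and the difference was -0.25 or less, and called higher by the mirror of this rule. Genes with at least 50 UMIs in a class over the 6 libraries entered. A class sum cannot tell fewer expressing cells from less RNA per cell, and classes of 1 library come from the same mouse, so a pattern shared by classes is not replication. Where levels of 6 libraries follow each other, the first 4 are the control, then 2FF, then anti-PD-L1 alone, then 2FF with the antibody, and the pair after "against" is the 2DG and then the 2DG plus anti-PD-L1 library.

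The median difference of the glycolytic genes was below 0 in each class. Of 235 gene and class combinations with enough UMIs, 189 had a difference below 0, 41 were called lower and 0 were called higher. Among all genes, 43.8% (macrophage-like) to 64.1% (neutrophil-like) had a difference above 0, depending on the class. The called genes were 16 of the 31 that could be examined in at least 1 class, and 15 were never called. Eno2, the neuronal enolase, and the 2nd Aldoa identifier (ENSMUSG00000114515) had fewer than 50 UMIs in each class. The calls gathered in a few genes, with Pgk1 called lower in 7 of 8 classes, Tpi1 in 6, and Slc16a3, Pgam1 and Pfkl in 4 each. In 10 of the 41 calls, the 95% Poisson intervals of both 2DG libraries lay wholly below those of the other 4, and 7 of those 10 were in monocyte-like cells. These intervals cover counting error only and are narrower where a class holds more UMIs. Class sums held 10757924 to 23488155 UMIs per library in monocyte-like cells and 702351 to 2802832 in Treg-like cells. No share over all genes was computed for this count.

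The share of called genes exceeded the share among all genes in each class, most clearly in monocyte-like cells. The genes were chosen with earlier results of these data known, so this excess is a description and not independent support. There, 10 of 31 glycolytic genes were called lower, against 1.75% of all genes in that direction and 1.93% called higher. Without the control and 2FF libraries, a setting chosen after the data were seen, 3 of 31 were called lower (2.46% of all genes) and 1 higher (2.18%), with a median of -0.11. In Treg-like cells 9 of 28 were called lower, where 4.58% of all genes were called lower and 2.67% higher. With each cell thinned to 1000 UMIs, 2 of 28 were called lower there, beside 5.43% of all genes. Dendritic-like cells had 5 of 29 lower, beside 1.98% lower and 1.90% higher among all genes. CD4 T-like cells had 4 of 30 lower (all genes 2.78% lower, 2.25% higher), and CD8 T-like cells 3 of 31 (2.08% lower, 1.17% higher). Macrophage-like cells had 3 of 31 lower, where 0.966% of all genes were called lower and 0.596% higher. B-like cells had 3 of 27 lower, with 4.84% lower and 3.27% higher among all genes. Neutrophil-like cells had 4 of 28 lower, in a class where 3.48% of all genes were called lower and 10.8% higher.

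Taken gene by gene, the typical shift was small. The median difference over the glycolytic genes was -0.27 in Treg-like, -0.20 in monocyte-like, -0.19 in neutrophil-like and -0.16 in both CD8 and CD4 T-like cells, then -0.14 in dendritic-like, -0.11 in macrophage-like and -0.09 in B-like cells. Over all genes the median lay between -0.02 and 0.11 in these classes. In the T-like classes 4 genes each lay above 0, and 27 of 31 lay below 0 in CD8 T-like, 26 of 30 in CD4 T-like and 24 of 28 in Treg-like cells. Of all genes, 44.2%, 47.6% and 47.3% lay above 0 in those classes in turn. The summed level of the 33 rows was 7081 and 7420 CPM in the 2DG libraries of monocyte-like cells and 8032 to 11863 in the others. It was 3890 and 4087 CPM against 4333 to 4643 in CD8 T-like cells, and 5096 and 5464 CPM against 5922 to 6645 in Treg-like cells. In the other 5 classes the ranges of the summed level overlapped. The control had the highest sum in monocyte-like and neutrophil-like cells, and the 2FF library had it in each remaining class. Without the 2FF library the median difference was -0.05 in B-like, -0.07 in macrophage-like and -0.11 in dendritic-like cells. For the T-like classes it was then -0.12 (CD4), -0.15 (CD8) and -0.25 (Treg). The monocyte-like and neutrophil-like medians were -0.23 and -0.20 in that setting.

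**Figure D1:**
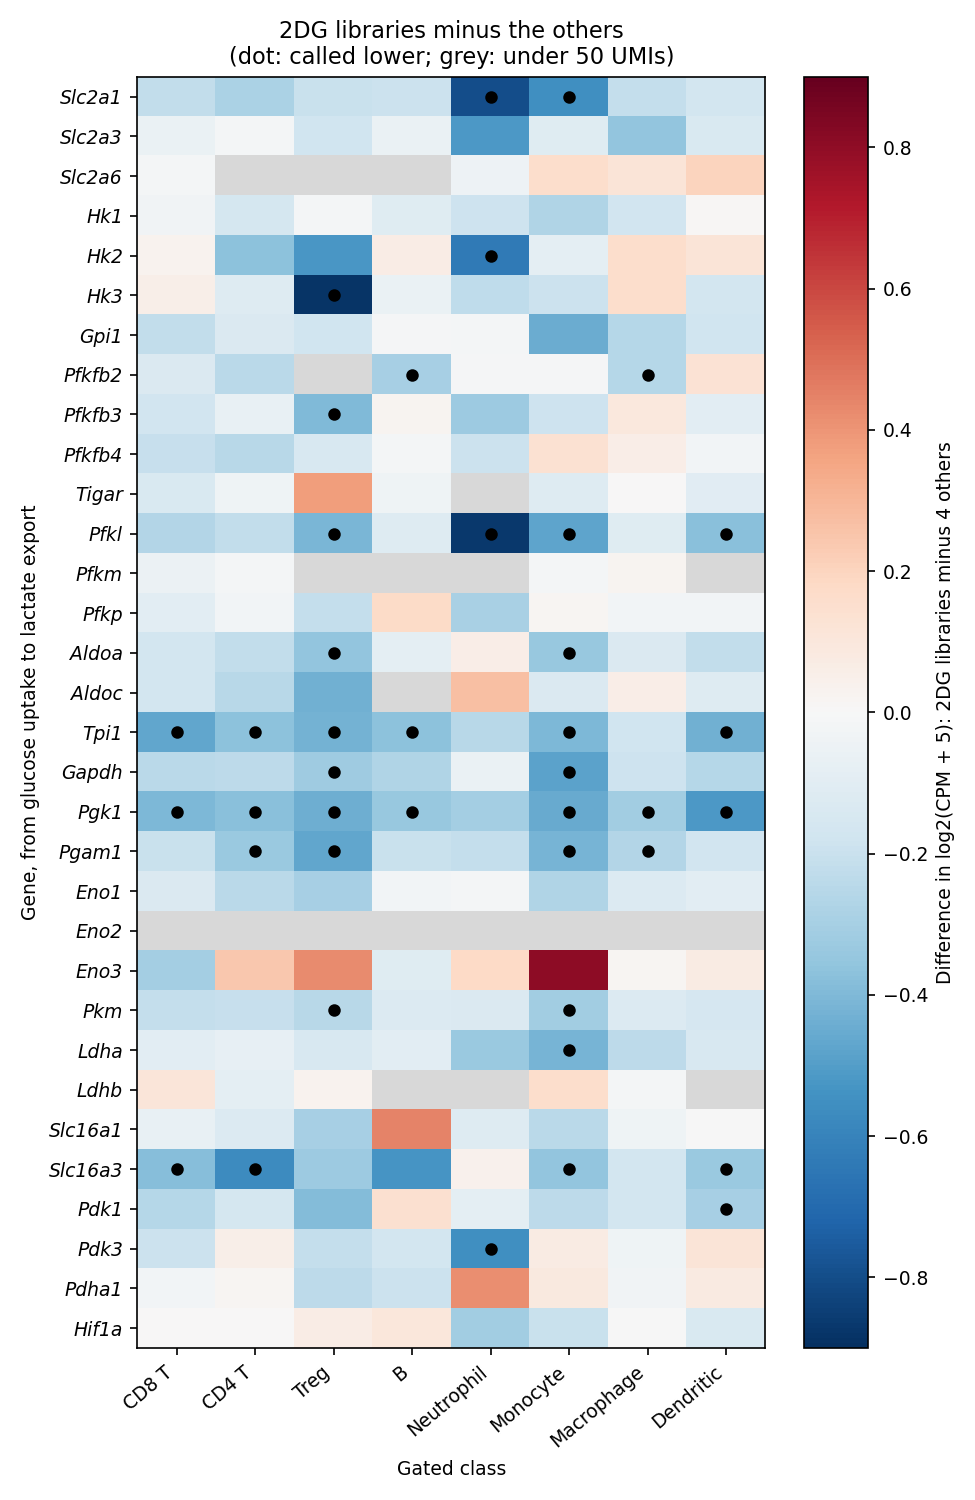
Difference in log2(CPM + 5) between both 2DG libraries and the other 4 for each gene (rows, ordered along the route) in each gated class (columns), blue where lower and red where higher; black dots mark the 41 combinations called lower and grey marks fewer than 50 UMIs. The dots crowd in the rows of Tpi1 and Pgk1 and in the monocyte and Treg columns, and no combination was called higher.

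**Figure D2:**
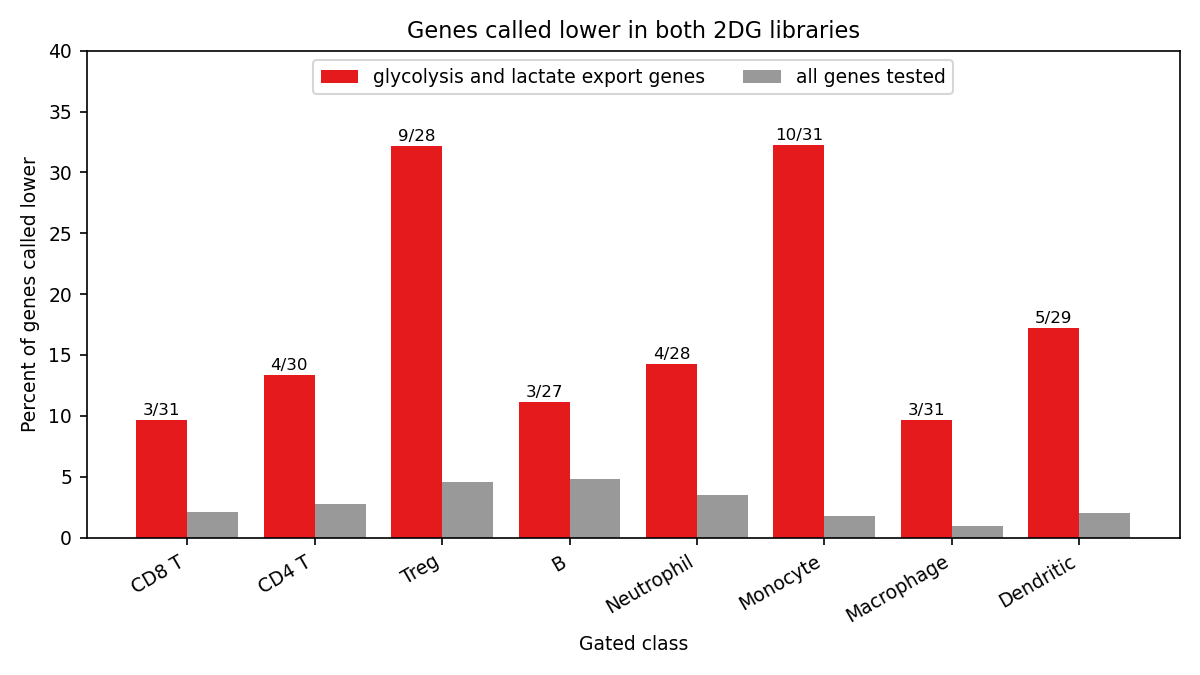
Percent of genes called lower in both 2DG libraries in each gated class, for the glycolysis and lactate export genes (red, with the count over the number examined) and for all genes with enough UMIs (grey). The red bar stands above the grey one in each class, by the widest margin in monocyte-like cells (10 of 31 against 1.75%).

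Calls for glucose uptake came from myeloid classes. Slc2a1 encodes GLUT1, the common glucose transporter. In monocyte-like cells it stood at 546, 251, 245 and 257 CPM against 219 and 194 CPM (difference -0.55). Both 2DG values were the lowest of the 6, the control was far above the rest, and without the control library the difference was -0.28. In neutrophil-like cells the levels were 743, 288, 399 and 397 CPM against 250.3 and 239 CPM (difference -0.80), again with the highest value in the control. Slc2a1 lay below 0 in all 8 classes. In macrophage-like cells both 2DG libraries were also the lowest, at 253, 219, 221 and 218 CPM against 215 and 177 CPM (difference -0.22), short of the limit for a call. In the lymphocyte and dendritic-like classes at least 1 of the 2DG values lay among the others. Slc2a3, which encodes the high-affinity transporter GLUT3, was below 0 in 8 classes and called in none. Slc2a6, a lysosomal family member, was examined in 5 classes, with differences from -0.04 to 0.20.

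Hexokinases gave few calls, and Hk2 was below 0 in 4 of 8 classes and Hk3 in 6 of 8. Hk2, the inducible form, was called lower in neutrophil-like cells, at 435, 221, 314 and 294 CPM against 186 and 205 CPM (difference -0.64). In the remaining classes its difference ran from -0.52 in Treg-like to 0.16 in macrophage-like cells, with no call. Hk3, a form typical of myeloid cells, was called lower in Treg-like cells, at 18.5, 14.4, 11.1 and 5.71 CPM against 5.35 and 3.0 CPM (difference -0.88). Those Hk3 values rest on 4 to 22 UMIs per library, while the median level was 180 CPM in neutrophil-like, 129 CPM in monocyte-like and 151 CPM in macrophage-like cells, and the part of free or doublet RNA from such cells was not tested. Hk1, the housekeeping form, was below 0 in 7 of 8 classes and never called. Gpi1, which isomerizes glucose 6-phosphate, was below 0 in all 8 classes without a call, as in monocyte-like cells at 598, 329, 342 and 295 CPM against 307 and 245 CPM (difference -0.45).

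At the commitment step, the liver-type phosphofructokinase Pfkl was the form that gave calls. In monocyte-like cells it was 159, 133, 109.8 and 111 CPM against 101 and 79.7 CPM (difference -0.47), with -0.31 left when the 2DG plus anti-PD-L1 library was not used. Neutrophil-like cells gave 179, 67.0, 80.6 and 73.0 CPM against 41.1 and 55.9 CPM (difference -0.87), and -0.56 without the control library. In both classes the control was the highest library. Treg-like cells had 71.2, 86.2, 62.8 and 56.5 CPM against 52.4 and 47.9 CPM (difference -0.41). Dendritic-like cells had 45.5, 58.0, 41.1 and 43.2 CPM against 38.8 and 31.2 CPM (difference -0.37), which became -0.24, without a call, when the 2DG plus anti-PD-L1 library was left out. The 2FF library was the highest in these last classes. The platelet-type Pfkp and the muscle-type Pfkm were called in no class.

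Enzymes that set fructose 2,6-bisphosphate, the main activator of phosphofructokinase, gave few calls. Pfkfb3, the form with the strongest kinase side, was called lower in Treg-like cells, at 132, 99.4, 107 and 96.5 CPM against 94.2 and 68.9 CPM (difference -0.40). Without the 2DG plus anti-PD-L1 library the difference was -0.19 and the call was lost, and without the 2DG library it was -0.61. Pfkfb2 was called lower at low levels in B-like cells, 7.11, 7.43, 9.60 and 7.23 CPM against 4.92 and 5.97 CPM (difference -0.30), from 3 to 17 UMIs per library, and the call was lost without the anti-PD-L1 (-0.23) or the 2DG library (-0.22). In macrophage-like cells Pfkfb2 was 12.2, 8.23, 13.9 and 8.49 CPM against 8.08 and 7.89 CPM (difference -0.26), and the call was lost without the anti-PD-L1 (-0.16), the control (-0.21) or the 2DG plus anti-PD-L1 library (-0.25). Pfkfb4, and Tigar, a phosphatase that opposes the kinase forms, were never called.

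Among the trunk enzymes from aldolase to pyruvate kinase, Pgk1, Tpi1 and Pgam1 were called lower in the most classes. Tpi1 (chromosome 6, 124810586 to 124814296, minus strand, GRCm38) encodes triose phosphate isomerase, which equilibrates the 3-carbon sugars that aldolase makes. In CD8 T-like cells its levels were 206, 184, 174 and 155 CPM against 129 and 127 CPM (difference -0.47). Both 2DG libraries lay under all others there and their Poisson intervals did not overlap those of the others. CD4 T-like cells had 241, 249, 199 and 199 CPM against 157 and 184 CPM (difference -0.37), Treg-like cells 295, 299, 227 and 216 CPM against 192 and 187 CPM (difference -0.43) and B-like cells 71.1, 102, 83.0 and 72.3 CPM against 59.1 and 64.9 CPM (difference -0.37). Monocyte-like cells had 687, 536, 463 and 446 CPM against 394 and 397 CPM (difference -0.40), again with intervals apart. Dendritic-like cells had 195, 274, 205 and 223 CPM against 183 and 147 CPM (difference -0.43), and -0.28 without the 2DG plus anti-PD-L1 library. In the neutrophil-like and macrophage-like classes, where Tpi1 was not called, a 2DG value lay among the others.

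Pgk1 (chromosome X, 106187100 to 106203699, plus strand, GRCm38) encodes phosphoglycerate kinase, which makes the first ATP of the route. Its levels in CD8 T-like cells were 251, 212, 229.9 and 196 CPM against 177 and 156 CPM (difference -0.40), and in Treg-like cells 298, 324, 292 and 298 CPM against 231 and 213 CPM (difference -0.44). In both of these classes the Poisson intervals of the 2DG libraries lay below the others. Monocyte-like cells, also with intervals apart, had 891, 598, 518 and 549 CPM against 464 and 444 CPM (difference -0.46), and -0.29 without the control library. Macrophage-like cells had 553, 634, 618 and 611 CPM against 534 and 441 CPM (difference -0.31) and dendritic-like cells 221, 296, 253 and 239 CPM against 219.7 and 138 CPM (difference -0.52). In these last classes the 2DG library lay just under the control, and without the 2DG plus anti-PD-L1 library the differences were -0.18 and -0.19 with no call. CD4 T-like cells had 222, 300.2, 243 and 249 CPM against 188 and 198 CPM (difference -0.38) and B-like cells 118, 117, 87.1 and 79.6 CPM against 78.8 and 75.3 CPM (difference -0.34). In neutrophil-like cells, the class without a call, the levels were 462, 287, 284 and 254 CPM against 267 and 239 CPM (difference -0.30) and the 2DG library lay above the 2FF plus anti-PD-L1 library.

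**Figure D3:**
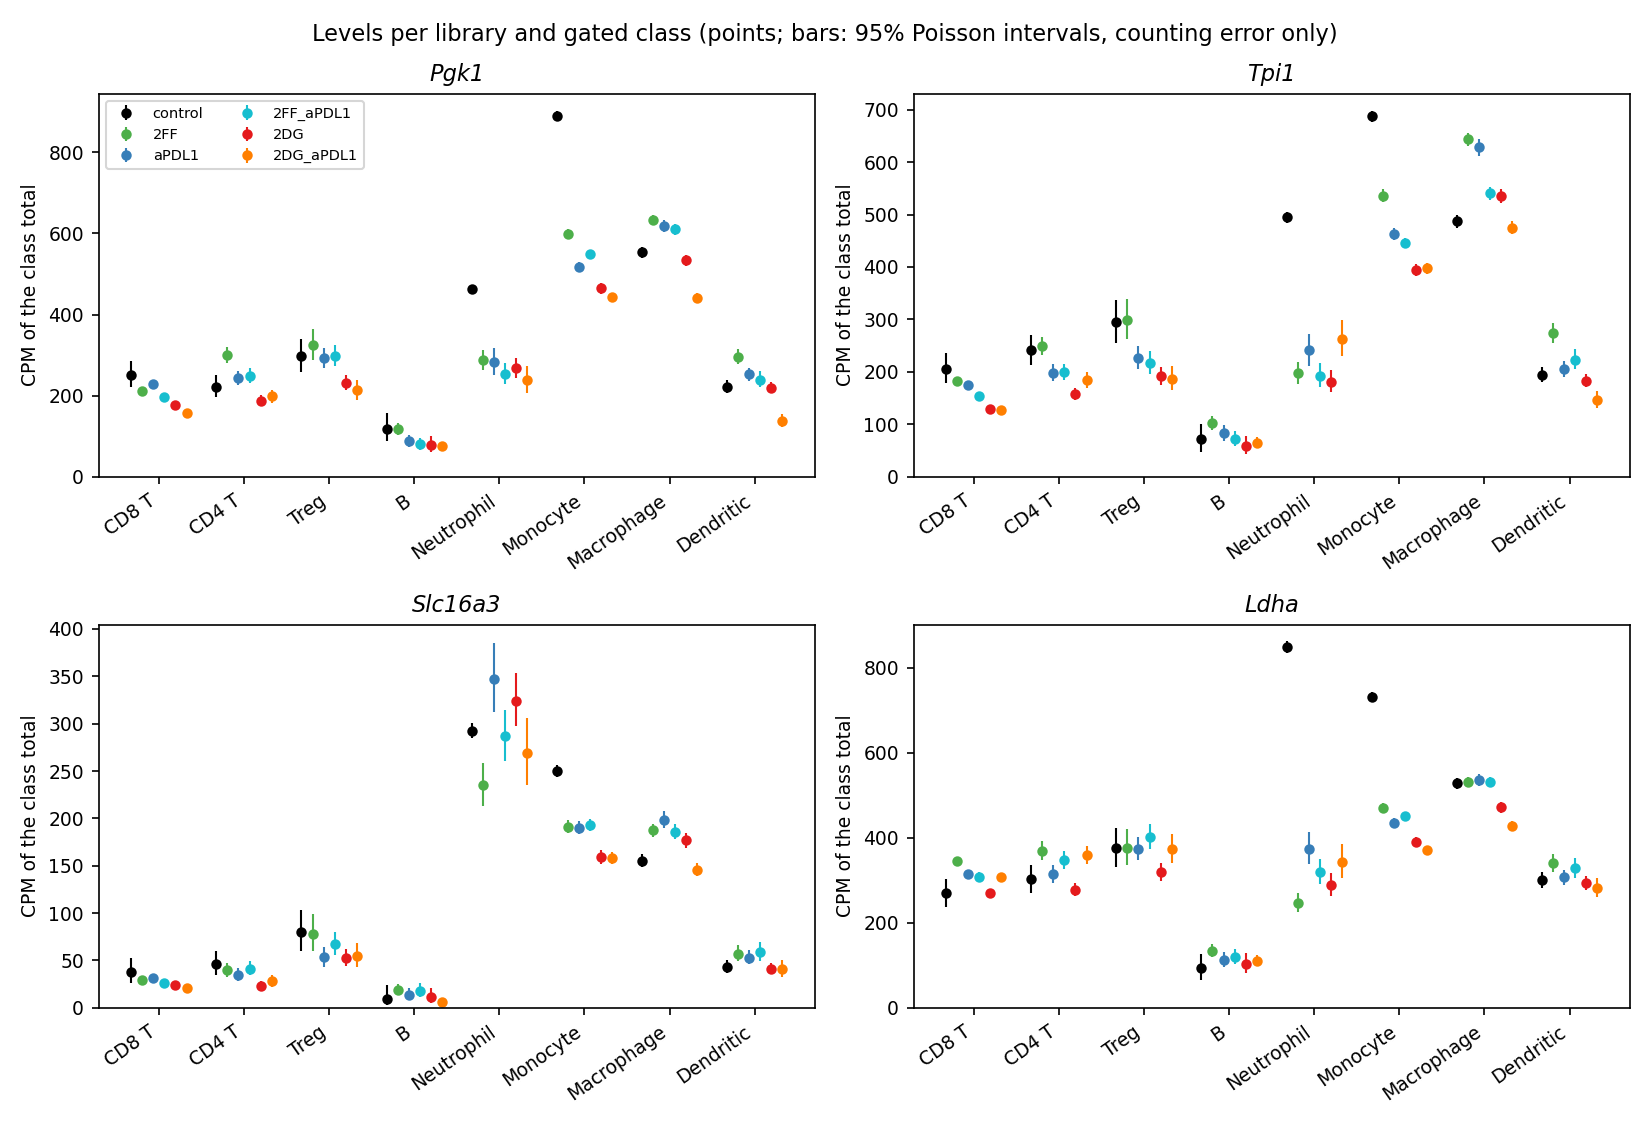
CPM of the class total for Pgk1, Tpi1, Slc16a3 and Ldha in each library (points, 1 mouse each, colored by group) and each of 8 gated classes, with 95% Poisson intervals that cover counting error only. The red (2DG) and orange (2DG plus anti-PD-L1) points of Pgk1 are the lowest in 7 of 8 classes, while the black control points stand high in the neutrophil and monocyte columns.

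Gapdh, Aldoa and Pkm were called in Treg-like and monocyte-like cells, and Pgam1 in these and 2 further classes. Gapdh, which oxidizes glyceraldehyde 3-phosphate, was 876, 1184, 935 and 955 CPM against 803 and 768 CPM (difference -0.32) in Treg-like and 2299, 1785, 1329.6 and 1458 CPM against 1248 and 1153 CPM (difference -0.48) in monocyte-like cells. The monocyte intervals were apart, and the Treg-like call was lost without the 2FF library (-0.23). Aldoa, the main aldolase (the brain-type Aldoc was never called), was 439, 499, 372 and 455 CPM against 332 and 352 CPM (difference -0.36) in Treg-like cells. In monocyte-like cells it was 824, 589, 467 and 516 CPM against 463 and 457 CPM (difference -0.34), or -0.18 and no call without the control library. The anti-PD-L1 library lay closest to the 2DG libraries in both. Pkm, pyruvate kinase, was 597, 733, 681 and 601 CPM against 549.8 and 541 CPM (difference -0.25) in Treg-like and 1355, 1109, 1023 and 1024 CPM against 875 and 927 CPM (difference -0.31) in monocyte-like cells. Its monocyte-like call was lost without the control library (-0.22). Its Treg-like difference was the smallest of the 41 called, stood in 9 of 22 alternative settings, and lost its call without the 2FF (-0.20), anti-PD-L1 (-0.23) or 2DG plus anti-PD-L1 library (-0.24). Pgam1, a mutase, was 172, 169, 131 and 145 CPM against 112 and 106 CPM (difference -0.47) in Treg-like and 152, 168, 139.6 and 142 CPM against 113 and 123 CPM (difference -0.33) in CD4 T-like cells. In monocyte-like cells it was 608, 408, 323 and 364 CPM against 307 and 308 CPM (difference -0.42), or -0.24 and no call without the control library. In macrophage-like cells it was 438, 470.4, 419 and 421 CPM against 395 and 333 CPM (difference -0.27), or -0.14 and no call without the 2DG plus anti-PD-L1 library, and -0.23 and no call without the 2FF library. Apart from Gapdh and Pkm in monocyte-like cells, each of these calls had overlapping counting intervals.

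Eno1, the common enolase, did not follow its neighbours. It was below 0 in all 8 classes, from -0.30 to -0.02, and called in none. In each class the 2DG plus anti-PD-L1 library lay above the 2FF plus anti-PD-L1 library, as in monocyte-like cells at 424 and 380 CPM. Eno3, an enolase typical of muscle, ran the other way at low levels, with a difference of 0.80 in monocyte-like cells. Its 2DG values there, 37.9 and 25.8 CPM, overlapped the others, which ran from 4.56 CPM in the control to 28.7 CPM in the 2FF library.

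At the lactate end, the exporter gave more calls than the enzyme. Slc16a3 (chromosome 11, 120948480 to 120960868, plus strand, GRCm38) encodes MCT4, a transporter that releases lactate from strongly glycolytic cells. It was 46.1, 39.4, 34.4 and 41.1 CPM against 23.3 and 27.7 CPM (difference -0.57) in CD4 T-like cells and 37.8, 29.4, 31.4 and 26.1 CPM against 23.8 and 21.4 CPM (difference -0.38) in CD8 T-like cells. In monocyte-like cells it was 250.1, 191, 190.1 and 193 CPM against 159 and 159 CPM (difference -0.36), with Poisson intervals apart. Dendritic-like cells had 43.2, 57.0, 52.7 and 58.7 CPM against 40.7 and 40.5 CPM (difference -0.34). In the lymphocyte classes the control was the highest library, and in dendritic-like cells it was close to the 2DG libraries. The related transporter Slc16a1 (MCT1), which moves lactate in either direction, was called in no class.

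Ldha (chromosome 7, 46841475 to 46855627, plus strand, GRCm38), the muscle-type lactate dehydrogenase subunit that favours lactate formation, was called lower in 1 class, monocyte-like cells. It was 731, 471, 436 and 451 CPM against 389 and 371 CPM (difference -0.42) there, with intervals apart. Without the control library the difference was -0.25, just short of the limit for a call. In macrophage-like cells both 2DG libraries were also the lowest, at 528, 531, 536 and 531 CPM against 472 and 429 CPM (difference -0.24), short of the limit. Ldha was below 0 in the other 6 classes too, from -0.33 in neutrophil-like to -0.07 in CD4 T-like cells. The heart-type Ldhb had enough UMIs in 5 classes and no call.

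The 5 genes called in at least 4 classes are shown with the sequence before their start. RefSeq windows (GRCm38.p6, 250 bases before to 50 after a transcript start) were found for 31 of the 32 symbols, 46 windows in all, and were searched on both strands for ACGTG and GCGTG, core letters of the hypoxia response element. ACGTG was in 22 of the 46 windows, or 47.8%, and in 19.6% of all 32851 windows. GCGTG was in 26 of 46, or 56.5%, and in 32.4% of all windows. A match is a description of the letters and not a binding site. Of the often called genes, Pgk1, Slc16a3 and Pgam1 had ACGTG in a window, while Tpi1 and Pfkl had none. The Pfkl, Slc16a3 and Ldha windows lie inside the annotated gene spans (to 78010083, from 120948480 and from 46841475). Of the Tpi1 window, 112 bases lie before the annotated gene start. A missing match thus says little about the sequence before the whole gene.

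Capitals below mark ACGTG or its reverse complement in the bases before the start that lie outside annotated exons, 5′ to 3′ on the gene's strand. Ldha is shown for its role at the lactate end. Pgk1 (chrX:106186850-106187099, plus strand) had 2 matches, 150 and 131 bases before the start. The Ldha window that held most matches (chr7:46845554-46845803, plus strand) had 5, of which 4 came from a pair of CACGTG palindromes that read the same on both strands and were counted on each. Slc16a3 (chr11:120948817-120949052, plus strand) had 2 in its window, 1 of them in the stretch shown. Tpi1 (chr6:124814297-124814408, minus strand) had no match in its window. Pgam1 (chr19:41911621-41911870, plus strand) had 1 match, 114 bases before the start, and Pfkl (chr10:78009808-78010004, minus strand) had none.
Pgk1: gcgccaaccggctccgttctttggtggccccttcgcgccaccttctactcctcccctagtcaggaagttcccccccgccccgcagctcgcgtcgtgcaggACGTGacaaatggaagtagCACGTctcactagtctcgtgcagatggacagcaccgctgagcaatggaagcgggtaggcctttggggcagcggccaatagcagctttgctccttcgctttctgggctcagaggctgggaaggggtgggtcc
Ldha: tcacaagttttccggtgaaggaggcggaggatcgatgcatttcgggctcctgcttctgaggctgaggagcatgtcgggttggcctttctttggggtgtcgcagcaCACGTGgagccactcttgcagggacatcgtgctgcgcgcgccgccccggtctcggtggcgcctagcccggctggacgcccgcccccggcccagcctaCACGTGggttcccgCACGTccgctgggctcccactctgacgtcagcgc
Slc16a3: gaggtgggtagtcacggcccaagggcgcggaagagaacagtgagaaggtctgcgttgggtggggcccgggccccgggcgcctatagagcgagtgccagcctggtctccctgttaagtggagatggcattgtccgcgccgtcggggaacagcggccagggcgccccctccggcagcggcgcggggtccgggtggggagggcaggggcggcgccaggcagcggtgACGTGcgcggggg
Tpi1: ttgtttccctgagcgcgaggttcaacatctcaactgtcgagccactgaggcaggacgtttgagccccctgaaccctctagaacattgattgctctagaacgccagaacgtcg
Pgam1: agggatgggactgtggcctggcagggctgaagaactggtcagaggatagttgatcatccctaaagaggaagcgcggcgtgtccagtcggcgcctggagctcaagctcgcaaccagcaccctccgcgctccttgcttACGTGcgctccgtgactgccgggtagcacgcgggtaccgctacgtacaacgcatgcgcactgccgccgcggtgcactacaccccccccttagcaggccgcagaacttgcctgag
Pfkl: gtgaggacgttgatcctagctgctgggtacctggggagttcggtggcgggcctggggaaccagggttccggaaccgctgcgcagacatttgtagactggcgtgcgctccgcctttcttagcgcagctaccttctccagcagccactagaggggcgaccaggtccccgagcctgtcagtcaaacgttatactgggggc

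Genes that steer pyruvate toward or away from mitochondria gave 2 calls. Pdk1, a kinase that shuts pyruvate dehydrogenase, was called lower in dendritic-like cells, at 25.2, 16.8, 17.2 and 18.4 CPM against 16.5 and 13.0 CPM (difference -0.30). That call was lost without the control library (-0.19) and without the 2DG plus anti-PD-L1 library (-0.17). Pdk3, a related kinase, was called lower in neutrophil-like cells, at 44.4, 41, 44.7 and 44.4 CPM against 39.2 and 19.8 CPM (difference -0.55). Only the 2DG plus anti-PD-L1 library stood well apart there, and the difference was -0.14 without it and -0.97 without the 2DG library. Pdha1, the dehydrogenase subunit that these kinases act on, and Hif1a, the HIF-1 subunit that oxygen controls, were not called, with differences of -0.24 to 0.42 and -0.31 to 0.10.

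Each 2DG library was also set against its own counterpart with the same checkpoint treatment. In the presence of the antibody, 2DG plus anti-PD-L1 lay below anti-PD-L1 alone for 28 of 31 genes in CD8 T-like, 29 of 31 in macrophage-like and 27 of 31 in monocyte-like cells, with median log2 ratios of -0.32, -0.27 and -0.19. Without the antibody, 2DG lay below the control for 22 of 31, 13 of 31 and 21 of 31 genes in those classes, with medians of -0.17, 0.08 and -0.48. Against the other glycan inhibitor, 2DG lay below 2FF for 17, 19 and 21 of 31 genes, and 2DG plus anti-PD-L1 below 2FF plus anti-PD-L1 for 26, 21 and 23. These ratios share libraries with the differences above. No share over all genes was computed for the pairings, so a shift common to all genes of a library cannot be told apart. Pgk1 was below its counterpart in all 4 pairings in all 8 classes. For Tpi1 this held in 7, 7, 8 and 7 of 8 classes (order control, antibody alone, 2FF, 2FF with the antibody). Where a gene was called lower, in 7 classes for Pgk1 and 6 for Tpi1, the rule for calls itself forces all 4 pairings below. In macrophage-like cells the sign of the median depended on the counterpart. It did so in B-like cells as well, where 2DG lay below the control for 10 of 27 genes with a median of 0.15, and the other pairings had 20, 17 and 19 of 27 genes below with medians of -0.16, -0.29 and -0.15. Dendritic-like cells had 16 of 29 genes below the control (median -0.03) and 24, 17 and 21 of 29 in the other pairings. CD4 T-like cells had 21 to 24 of 30, Treg-like 19 to 24 of 28 and neutrophil-like cells 15 to 21 of 28 genes below, with each median under 0. In macrophage-like cells, leaving out the 2DG plus anti-PD-L1 library took the number of glycolytic genes called lower from 3 to 0 of 31. The share of all genes called lower went from 0.966% to 2.18%. In that setting 2 of 31 glycolytic genes were called higher, beside 2.88% of all genes.

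The control library itself held high levels of these genes in its monocyte-like and neutrophil-like cells, and it is 1 of the 4 libraries behind each difference. Its summed level was instead the lowest of those 4 in macrophage-like (8097 CPM) and dendritic-like cells (4542 CPM). The same held in CD4 T-like (5007 CPM) and B-like cells (1824 CPM). A gene was called for the control where it lay outside all 5 treated libraries and differed from their mean log2(CPM + 5) by at least 0.25. In monocyte-like cells 17 of 31 glycolytic genes were higher in the control (11.8% of all genes) and 6 were lower (25.5%). In neutrophil-like cells 15 of 28 were higher (15.0%) and 2 were lower (25.9%). The median difference of the control from the treated libraries was 0.45 and 0.56 in these classes, and -0.09 and -0.13 over all genes. Ldha in neutrophil-like cells was 849 CPM in the control and 247 to 374 CPM in the 5 treated libraries, and Gpi1 in monocyte-like cells was 598 CPM and 245 to 342 CPM. Eno3 was the reverse, at 4.56 CPM in control monocyte-like cells and 16.6 to 37.9 CPM elsewhere.

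The control was the highest library in 22 of the 41 combinations called lower in the 2DG libraries. These were 10 of 10 in monocyte-like, 3 of 4 in neutrophil-like, 3 of 3 in CD8 T-like and 3 of 9 in Treg-like cells. CD4 T-like, B-like and dendritic-like cells had 1 each and macrophage-like cells 0. No share over all genes was computed for this count. Outside the monocyte-like and neutrophil-like classes the control stood out less. It was higher for 10 of 31 genes in CD8 T-like (20.9% of all genes), 7 of 30 in CD4 T-like (22.8%), 8 of 28 in Treg-like (20%) and 4 of 27 in B-like cells (20%). Macrophage-like and dendritic-like cells had 2 of 31 (16.6%) and 2 of 29 (18.5%). It was lower for 4 of 31 genes in CD8 T-like (25% of all genes), 2 of 30 in CD4 T-like (19.1%), 2 of 28 in Treg-like (24.2%), 7 of 27 in B-like (29.0%), 5 of 31 in macrophage-like (12.8%) and 4 of 29 in dendritic-like cells (17.3%). Without the control library, 6 of 31 genes in monocyte-like and 4 of 28 in neutrophil-like cells were still called lower in the 2DG libraries, among 1.17% and 4.88% of all genes. The median differences were then -0.13 and -0.06, and neutrophil-like cells also had 2 of 28 glycolytic genes called higher, beside 12.4% of all genes.

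**Figure D4:**
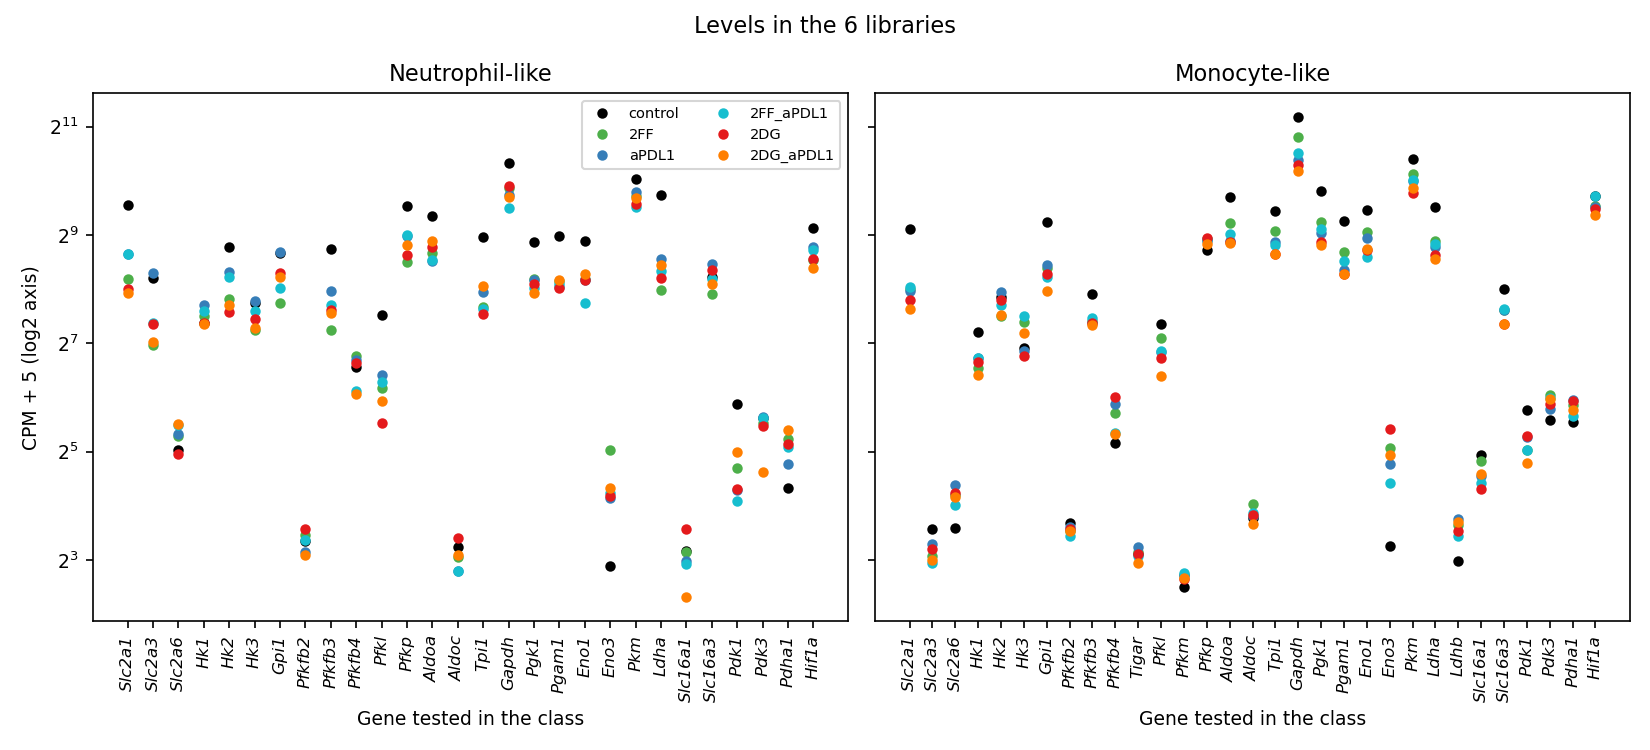
CPM + 5 (log2 axis) of each gene examined in neutrophil-like (left) and monocyte-like cells (right), 1 point per library. The black control points are the highest for most genes in both classes, 15 of 28 and 17 of 31 by the rule for calls, and Eno3 is among the genes where they lie lowest.

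The classes differed in which form of an enzyme they held. Shares are of UMIs, which count each captured molecule once, so no length was divided out, and each is the median over 6 libraries with the range. Among glucose transporter UMIs, Slc2a3 made up 64.5% (53.6% to 67.3%) in CD8 T-like cells but 1.35% (0.98% to 1.82%) in monocyte-like and 1.84% (1.49% to 5.73%) in macrophage-like cells, where Slc2a1 made up 93.0% and 92.1%. Neutrophil-like cells held both, with Slc2a3 at 29.1% (26.9% to 41.8%). Of hexokinase UMIs, Hk1 gave 66.7% (63.8% to 73.9%) in CD8 T-like and 17.6% (13.6% to 24.0%) in macrophage-like cells. Hk3 gave 33.5% (23.6% to 42.6%) in macrophage-like and 5.13% (1.80% to 7.58%) in CD8 T-like cells.

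Further along the route, Pfkp made up 96.0% (94.2% to 96.5%) of phosphofructokinase UMIs in dendritic-like cells and 76.3% (73.8% to 77.3%) in macrophage-like cells. The median Pfkp level of dendritic-like cells was 983 CPM, and its median in the other classes was 135 to 476 CPM. Ldha supplied most lactate dehydrogenase UMIs in each class, and Ldhb reached its largest share in CD4 T-like cells at 4.31% (3.58% to 5.25%). Eno3 made up 12.9% (10.5% to 17.5%) of enolase UMIs in dendritic-like cells and 1.18% (0.969% to 1.34%) in macrophage-like cells. Slc16a3 was 98.9% (97.9% to 100%) of lactate transporter UMIs in neutrophil-like cells and 55.2% (48.8% to 58.9%) in CD8 T-like cells. Pfkfb4 took 26.7% (17.3% to 40.3%) of its family's UMIs in neutrophil-like cells and 3.04% (2.5% to 4.89%) in CD8 T-like cells. For each of these pairs the ranges of the classes compared did not overlap. Hif1a was at a median of 1378 CPM in Treg-like and 1115 CPM in CD4 T-like cells, and at 182 to 733 CPM in the other 7 classes.

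**Figure D5:**
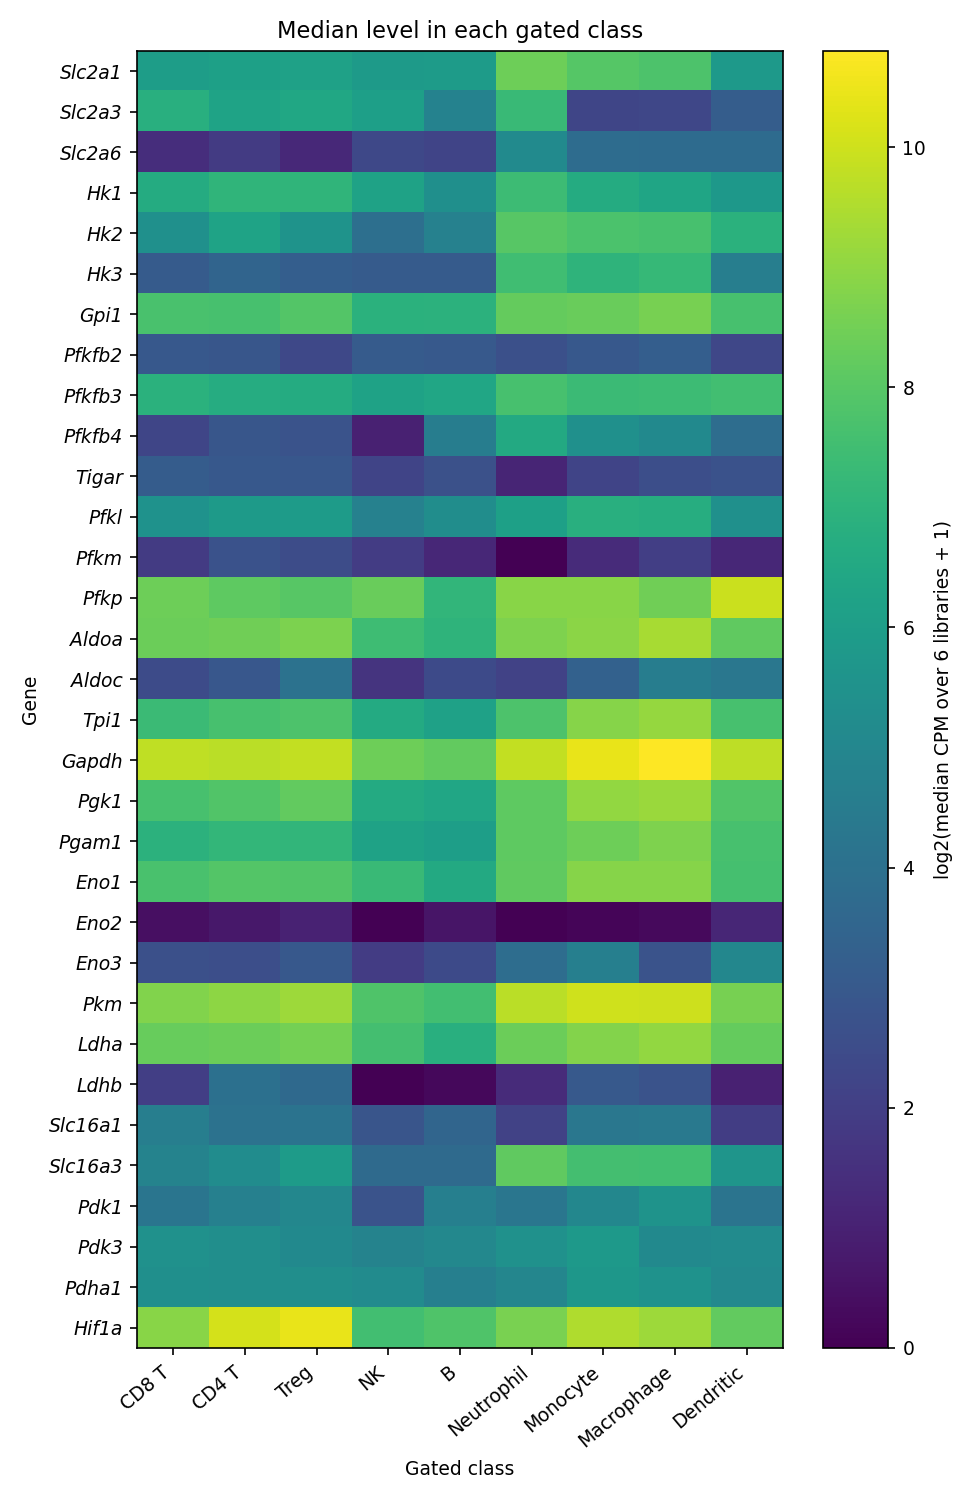
Median CPM over 6 libraries, as log2(CPM + 1), of each gene (rows, along the route) in 9 gated classes (columns), NK-like cells included. Slc2a3 is bright in T-like cells and neutrophils and dark in monocytes and macrophages, Hk3 and Slc16a3 are brighter in neutrophils, monocytes and macrophages than in lymphocytes, and Pfkp is brightest in dendritic-like cells at 983 CPM.

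Related gene lists were read by the same rule, and 1 of them gave many calls in the same direction. To set beside each list count, 0.966% to 4.84% of all genes by class were called lower and 0.596% to 10.8% higher. The hypoxia targets outside glycolysis, which low oxygen is known to induce, were listed under 16 symbols. Ero1l and Ero1a among them name the same gene, and at most 15 were examined in a class. Of their gene and class combinations, 26 of 115 were called lower and 0 higher. The list median was between -0.51 and -0.21 in the 8 classes. Ero1l, an oxidase of the endoplasmic reticulum, was called lower in 5 classes, and Bnip3, a mitophagy receptor, and Vegfa, a growth factor for vessels, in 4 each. Ndrg1 and Ankrd37 were called in 3, and Egln1 and Bhlhe40 in 2. In monocyte-like cells Ero1l was 134 and 121 CPM in the 2DG libraries, 176 to 185 CPM in the other treated libraries and 587 CPM in the control. In CD8 T-like cells Bnip3 was 6.24 and 6.70 CPM in the 2DG libraries against 7.66 to 57.8 CPM. The control was the highest library for each of these values. Summed over the list, the levels of CD8 T-like cells were 1146 and 1336 CPM in the 2DG libraries. The other treated libraries had 1163 to 1331 CPM and the control 1626 CPM. Treg-like cells had 1505 and 1479 CPM, beside 1378 to 1597 CPM and 2126 CPM in the control. Both 2DG sums lay below all others in monocyte-like (1587 and 1457 CPM against 1747 to 4067 CPM) and macrophage-like cells. The list was not read without the control library.

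Other lists gave few calls, to be read beside those shares among all genes, or calls in both directions. Of 29 further genes of glycolysis and pyruvate use, 7 combinations of 151 were called lower and 8 higher. Bsg, the chaperone that carries lactate transporters to the cell surface, was the only one called lower in 2 classes, B-like (difference -0.39) and monocyte-like (-0.48). The pentose phosphate pathway had 0 of 56 calls and the tricarboxylic acid cycle 2 lower and 3 higher of 128. Mannose and hexosamine supply had 4 lower of 79, with Gfpt1, the entry enzyme of the hexosamine route, lower in B-like and neutrophil-like cells. Of these calls, 3 of 9 genes examined were in B-like cells, where 4.84% of all genes were called lower. Both 2DG sums of the list lay below all others in B-like (117 and 132 CPM against 136 to 205 CPM) and neutrophil-like cells, and in no other class. Txnip and Arrdc4, which the glucose sensor MondoA is known to induce, had 0 of 15 calls, and the stress and unfolded protein response list had 4 lower and 1 higher of 106.

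Lists that describe cell state or RNA from other cells also gave calls. Cell cycle genes had 4 calls lower and 6 higher of 96. The lower calls were all in Treg-like cells (Cdk1, Mki67, Stmn1 and Tubb5, of 12 genes), where 4.58% of all genes were called lower. Of the higher calls, 4 of 12 genes were in neutrophil-like cells, where 10.8% of all genes were called higher. The others were Ccnb2 in CD4 T-like and Mki67 in monocyte-like cells. With cells holding a UMI of Mki67 or Top2a left out, an alternative added after the data were seen, 37 glycolytic combinations were called lower and 3 higher, and the Treg-like median was -0.30. Among all genes, 1.1% to 5.9% by class were then called lower and 0.96% to 7.39% higher. Dissociation and stress genes had 7 calls lower of 104, of which Jun was lower in 3 classes. RNA of other cell types was read from 12 genes (S100a8, S100a9, Hba-a1, Hba-a2, Hbb-bs, Hbb-bt, Ighm, Igkc, C1qa, Lyz2, Krt8 and Krt18). Myeloid classes can express some of these themselves, such as Lyz2, S100a8 and S100a9, so their sum there does not measure free RNA alone. The list had 2 calls lower and 4 higher of 83. Its summed level in monocyte-like cells was 4388 and 6112 CPM in the 2DG libraries and 3627 to 5704 CPM in the others. The summed level in Treg-like cells was 378 and 743 CPM in the 2DG libraries and 471 to 1997 CPM in the others. The part of free RNA in the glycolytic differences was not tested.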

How the data were processed

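The authors aligned 10x reads to mm10 (GRCm38) with Cell Ranger, version 7.0.0 per the file headers and 3.1.0 per the labels, and deposited unnormalized counts of UMIs, by gene and cell, for 6 libraries of 1 mouse each. Cells with at least 250 genes and at most 5% mitochondrial UMIs were kept. A cell took a lineage when at least 3 of its 6 markers were detected and no other lineage had as many. UMIs were summed per class and library, scaled to the class total and compared as described in the report, with no test. Libraries held 61859753 to 73885214 UMIs, and intervals cover counting error only. The members and lists were chosen with earlier results of these data known. All 32 members are accounted for, with values in each library where called. Of each other list, genes called in at least 2 classes are named, and others named were picked after their values were seen. The calling step was run on simulated Poisson counts drawn from the CD8 T-like and monocyte-like sums. These counts hold no spread between mice, so they cannot show how often the rule calls genes between mice. Python 3.11.15, numpy 2.4.6, pandas 2.3.3, scipy 1.17.1, scanpy 1.11.5, matplotlib 3.10.9 and edgeR 4.0.16 (TMM factors, R 4.3.3) were used. Doublets were kept, and leaving out the cells scored highest by Scrublet (6.16% to 7.38% per library) was an alternative. Other alternatives changed the gate, filters, scaling, added CPM and libraries. Genes sharing reads with near-identical pseudogenes, as Gapdh has, may be miscounted. Of the members, 2 (Pfkm and Slc16a1) overlap another gene on the same strand.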

Additional observations from a re-analysis of the deposited data

Results flagged for a closer look

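Genes outside the glycolytic members were called in opposite directions in 2 classes, with both 2DG libraries above all 4 others in one class and below all 4 others in another. The difference between the classes was not tested in any case. Bpgm, which makes 2,3-bisphosphoglycerate, was at 0.42 in Treg-like and -0.86 in neutrophil-like cells, a gap of 1.28 on the log2 scale, with the neutrophil-like levels at 1.16 to 23.9 CPM. Gpd2, a mitochondrial glycerol phosphate dehydrogenase, was at 0.36 in monocyte-like and -0.47 in CD8 T-like cells, a gap of 0.83. Pdp2, a phosphatase that reactivates pyruvate dehydrogenase, was at 0.67 in Treg-like and -0.27 in CD8 T-like cells, a gap of 0.93. Its levels were low, at 0, 3.59, 3.55 and 3.43 CPM against 11.06 and 3.75 CPM in Treg-like cells, where only the 2DG library stood well above the rest. In CD8 T-like cells they were 9.46, 5.98, 7.54 and 5.75 CPM against 5.07 and 5.04 CPM. The proliferation gene Mki67 was at 0.60 in monocyte-like and -0.32 in Treg-like cells, a gap of 0.92. The haemoglobin genes Hba-a1 and Hbb-bs, which neither class is known to express, were at 1.44 and 2.21 in macrophage-like and at -1.12 and -2.04 in CD8 T-like cells, gaps of 2.55 and 4.25.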

How the results depend on the processing

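No paired analysis was possible because each group has 1 library and no replicate number to pair, and the pairings by antibody in the report are ratios of single libraries. With 22 alternatives for each of the 41 called combinations, 7 were called in all 22 (Pfkl, Slc16a3 and Slc2a1 in monocyte-like, Pgam1 in Treg-like, Pgk1 and Tpi1 in CD8 T-like and Tpi1 in dendritic-like cells) and 24 in at least 20. The cause of each change was not tested. Pfkfb3 in Treg-like and Pfkfb2 in B-like cells reversed to 0.041 and 0.37 with cells thinned to 1000 UMIs. The B-like median reversed to 0.0071 with the control and anti-PD-L1 libraries as the only comparison, which also gave 64 combinations called lower and 6 higher, while 5.93% to 14.0% of all genes by class were called lower and 4.21% to 26.0% higher (0.966% to 4.84% and 0.596% to 10.8% with all libraries). Leaving out 1 library in turn gave 44 to 89 lower (89 without the 2DG library, where 6.19% to 18.5% of all genes were called lower) and 0 to 15 higher (15 without 2DG plus anti-PD-L1, where 2.88% to 26.1% of all genes were called higher). Both settings leave 1 library on that side. With thinned cells 29 were called lower (3.78% to 5.43% of all genes by class), 2 of them in Treg-like cells against 9 before. The count called higher was 3 with thinned cells (3.8% to 8.8% of all genes by class) and 3 with Mki67 or Top2a cells left out (0.96% to 7.39%). It was 2 without cells scored by Scrublet (0.67% to 10.7%) and 8 without the control and 2FF libraries (1.38% to 24.7%). It was 1 with 1 CPM added, no count filter, TMM factors, totals without ribosomal and mitochondrial genes, per-cell means, a gate lead of 2 markers or a gate of 2 markers. In these last settings 0.351% to 12.1% of all genes by class were called higher. The Treg-like median was -0.17 thinned and -0.18 without the control and 2FF libraries. With 1 library left out, medians ran from -0.25 to -0.069 in CD8 T-like, -0.26 to -0.12 in CD4 T-like, -0.33 to -0.19 in Treg-like, -0.14 to -0.049 in B-like (nearest 0 without 2FF), -0.26 to -0.065 in neutrophil-like (without the control), -0.24 to -0.13 in monocyte-like, -0.17 to -0.032 in macrophage-like (without 2DG plus anti-PD-L1) and -0.17 to -0.11 in dendritic-like cells. Thinning also moved the median summed level to 3911 CPM in CD8 T-like and 1724 CPM in B-like cells. Leaving out the control and 2FF libraries and leaving out Mki67 or Top2a cells were chosen after seeing the data. Depth limits B-like and Treg-like cells most, with as few as 422044 and 702351 UMIs in the control library.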

Other observations

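Classes with too few cells to compare held the same genes. In NK-like cells Pgk1 was at 113 CPM in the control, 132 in the 2FF, 63.6 in the anti-PD-L1 and 98.4 in the combined 2FF library, and at 85.6 and 95.5 CPM in the 2DG and 2DG plus anti-PD-L1 libraries. The epithelial-like cells, 8 to 17 per library in 4 of the treated libraries, 2 in the anti-PD-L1 library and 0 in the control, had Tpi1 at 864 CPM in the 2DG and 626 CPM in the 2DG plus anti-PD-L1 library and at 420.3 to 478 CPM in the 3 libraries without 2DG that held such cells.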
